A study of Mus musculus with 12 samples.

Results

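The type I interferon response genes described here are 43 mouse genes that cells transcribe after type I interferon binds its receptor. They were taken by symbol from a deposited table of gene counts, in which all 43 were found among 56980 genes, and all 43 passed the filter on low counts that left 20411 genes. The libraries came from CD8+ T cells sorted from tumours of wild type C57BL/6J mice, kept as DAPI-negative, CD45.2+ and CD8+ cells and split into gates with and without the surface glycolipid asialo-GM1 (asGM1). Panc02, a pancreatic cancer line of mouse origin, gave the tumours, either as such or as cells expressing Flt3L, which drives dendritic cell growth. The 4 groups were asGM1-positive and asGM1-negative cells of Flt3L Panc02 tumours and asGM1-positive and asGM1-negative cells of Panc02 tumours, with 3 libraries each. The labels do not say that the libraries of a group came from separate mice, so the p-values measure only the spread between these samples. No T cell receptor marker is named in the sort, and the labels give neither the age of the mice nor the day of the tumour harvest.

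Type I interferons signal through the receptor chains IFNAR1 and IFNAR2 to the kinases JAK1 and TYK2, which switch on a transcription factor complex that includes STAT2 and IRF9. That complex enters the nucleus and binds interferon-stimulated response elements in the promoters of genes that sense viral nucleic acid, block translation, degrade RNA or tag proteins with ISG15. In tumours, type I interferon is known to support the priming of CD8+ T cells, and plasmacytoid dendritic cells, which keep IRF7 high, are strong producers of it.

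Values are CPM, the counts of a gene scaled to a common library size with TMM factors. Library totals lay between 98663008 and 102896605 counts. The lowest member value in any library was 0.51 CPM, for Mx2, above the 0.08 CPM that 3 sequenced fragments gave. The 8 T cell transcripts used to check the sort (Cd8a, Cd8b1, Cd3d, Cd3e, Cd3g, Trac, Trbc1 and Trbc2) summed to 12070 to 16500 CPM in asGM1-positive cells of Flt3L Panc02 tumours and 9731 to 11300 CPM in their asGM1-negative cells. The same sum was 9134 to 10850 CPM in asGM1-positive and 9478 to 12040 CPM in asGM1-negative cells of Panc02 tumours. A gene was called at an adjusted p under 0.05 by the quasi-likelihood test of edgeR, adjusted over all 20411 genes, and a log2 fold change is given with its standard error (SE).

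Many members had their lowest levels in the asGM1-positive gate of Flt3L Panc02 tumours. In those tumours 20 of 43 members were lower in asGM1-positive cells than in the asGM1-negative gate, 0 were higher and 23 were not called. Of all genes tested, 5.83% were called lower and 2.77% higher in that comparison. The median log2 fold change was -0.57 over the members and -0.01 over all genes, and 39 of 43 members had a negative value. By DESeq2 25 members were lower and 1 higher, and by limma-voom 26 were lower. Those methods also called more of all 20411 genes in either direction, 3215 and 2805, against 1754 by edgeR. The 3 asGM1-positive libraries of Flt3L Panc02 tumours also had the fewest genes detected, 21882 to 22657 against 22907 to 24601 in the other 9 libraries, and the lowest TMM factors, 0.877 to 0.953 against 0.966 to 1.10. Mitochondrial genes took 0.551 to 0.844% of their counts, against 0.525 to 0.775% in the other libraries. The part of these library measures in the members' differences was not tested. In bulk RNA a smaller number of cells that use a gene cannot be told apart from less RNA of that gene per cell.

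In Panc02 tumours the same comparison of gates called 0 of 43 members by edgeR, where 0.843% of all genes were called lower and 0.049% higher. At an unadjusted p under 0.05 there were 10 members, and all genes were not counted at that threshold. DESeq2 called 4 members and limma-voom 6, where they called 598 and 831 of all 20411 genes, against 182 by edgeR. The median log2 fold change over the members was -0.22, against 0.02 over all genes, and 33 of 43 were negative.

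Between tumour types, asGM1-positive cells of Flt3L Panc02 tumours had 11 of 43 members lower than those of Panc02 tumours, with 0 higher, where 4.2% of all genes were called lower and 2.05% higher. DESeq2 called 16 lower and 3 higher (Irf9, Zbp1 and Slfn1), and limma-voom 17 lower and 2 higher (Irf9 and Slfn1). Of all 20411 genes these methods called 2979 and 3120 in either direction, against 1276 by edgeR. The median log2 fold change was -0.32 over the members and -0.03 over all genes. In asGM1-negative cells 1 member was higher in Flt3L Panc02 tumours (Trim25) and 1 was lower (Ifitm3), near the background of 1.86% of all genes higher and 1.84% lower. The comparison of gates in Flt3L Panc02 tumours and the comparison of tumour types in asGM1-positive cells share the 3 Flt3L Panc02 asGM1-positive libraries. The same 8 members (Eif2ak2, Ifit1, Ifit3, Ifit3b, Oasl2, Mx1, Rsad2 and Ifi44) were lower in both, out of 20 in the first and 11 in the second.

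**Figure D1:**
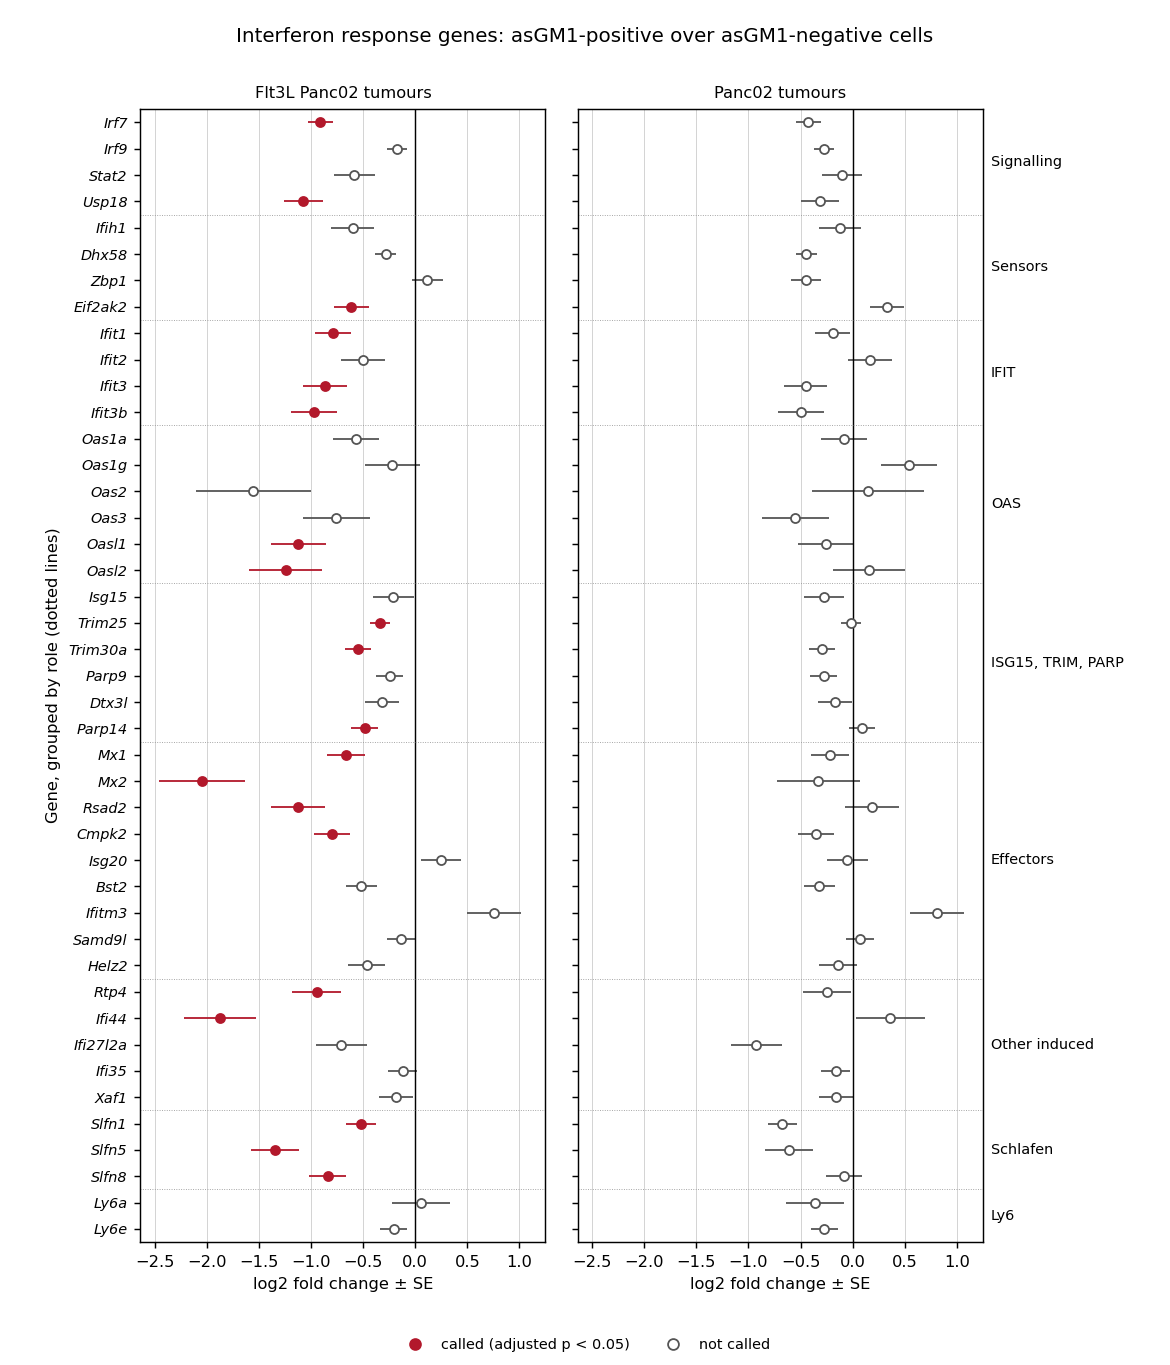
Log2 fold change (horizontal axis) of each of the 43 members in asGM1-positive over asGM1-negative cells, in Flt3L Panc02 tumours (left) and Panc02 tumours (right). Points are edgeR estimates, bars are 1 SE to each side, and filled points passed the adjusted threshold, which 20 members did on the left and 0 on the right.

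**Figure D2:**
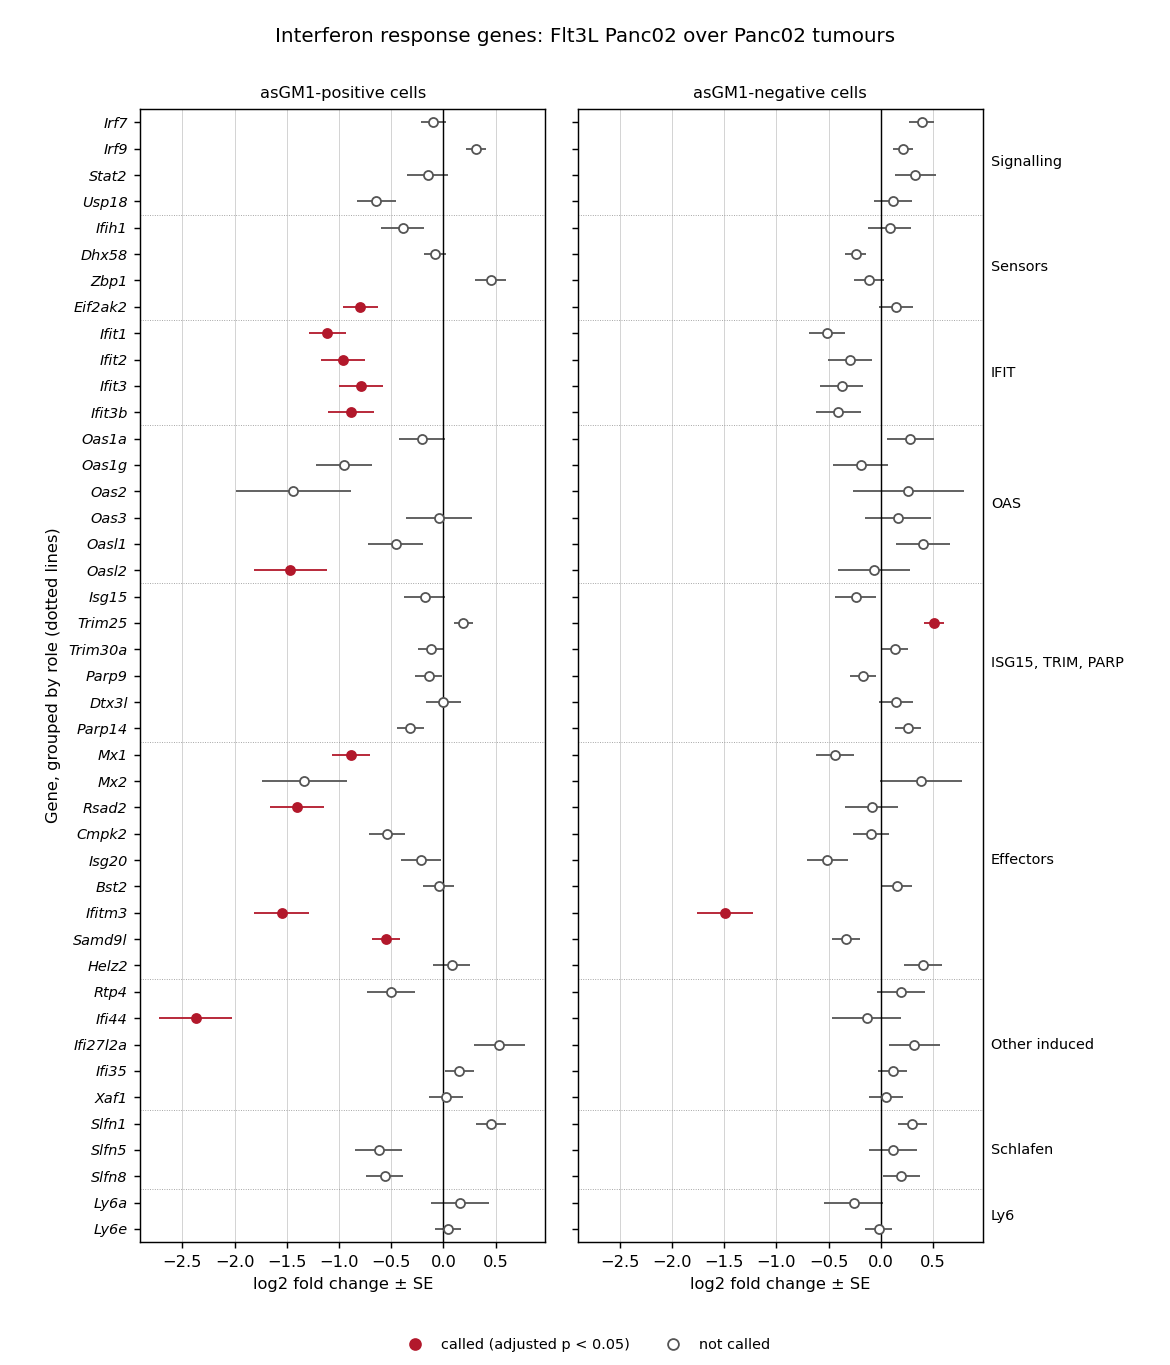
Log2 fold change (horizontal axis) of each member in Flt3L Panc02 over Panc02 tumours, in asGM1-positive cells (left) and asGM1-negative cells (right). Points are edgeR estimates with bars of 1 SE to each side, and the filled points are the 11 members lower on the left, and Trim25 and Ifitm3 on the right.

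The forest plots of the gates and of the tumour types order the members by role, and the role groups are taken in that order below. Promoters of 31 of the 43 members were found in RefSeq tables of the build GRCm38.p6. The 250 bases before each start were searched for TTTCNNTTTC, the core of the interferon-stimulated response element, and for its other strand GAAANNGAAA, with matches allowed to overlap. A match was present for 13 of these 31 members (41.9%), against 936 of 27025 gene symbols (3.46%). Of the 15 members with a promoter that were lower in asGM1-positive cells of Flt3L Panc02 tumours, 7 held a match, and of the other 16 members 6 did.  A match describes the sequence only. The promoters below all hold a match, and were picked for that as examples of where it lies. They belong to 5 of the 7 members just counted (Slfn8 and Trim30a are not printed) and to Isg15, which held 3 overlapping matches and was not called. Each is written toward the start of its gene, with matches in capitals.
Ifit1, chr19:34640639-34640888, + strand: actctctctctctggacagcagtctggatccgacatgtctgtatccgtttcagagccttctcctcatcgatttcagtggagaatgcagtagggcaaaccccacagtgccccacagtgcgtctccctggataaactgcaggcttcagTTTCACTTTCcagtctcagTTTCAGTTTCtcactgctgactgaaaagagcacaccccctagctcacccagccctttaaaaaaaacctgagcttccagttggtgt
Ifit3, chr19:34583279-34583528, + strand: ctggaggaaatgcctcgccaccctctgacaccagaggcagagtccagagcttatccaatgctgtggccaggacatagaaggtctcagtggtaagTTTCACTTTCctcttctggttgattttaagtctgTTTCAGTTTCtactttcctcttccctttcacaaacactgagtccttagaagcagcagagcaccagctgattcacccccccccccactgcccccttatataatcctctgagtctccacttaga
Ifit3b, chr19:34607707-34607956, + strand: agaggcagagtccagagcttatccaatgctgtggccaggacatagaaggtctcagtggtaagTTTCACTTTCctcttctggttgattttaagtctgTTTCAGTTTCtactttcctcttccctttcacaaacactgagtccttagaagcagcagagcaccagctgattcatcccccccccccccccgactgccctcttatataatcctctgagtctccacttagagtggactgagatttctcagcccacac
Rsad2, chr12:26456453-26456702, - strand: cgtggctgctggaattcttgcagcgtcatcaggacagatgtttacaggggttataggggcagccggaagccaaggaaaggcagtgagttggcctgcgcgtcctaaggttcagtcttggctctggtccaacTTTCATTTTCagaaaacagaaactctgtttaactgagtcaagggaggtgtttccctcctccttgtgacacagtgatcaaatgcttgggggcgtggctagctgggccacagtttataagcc
Slfn5, chr11:82951852-82952101, + strand: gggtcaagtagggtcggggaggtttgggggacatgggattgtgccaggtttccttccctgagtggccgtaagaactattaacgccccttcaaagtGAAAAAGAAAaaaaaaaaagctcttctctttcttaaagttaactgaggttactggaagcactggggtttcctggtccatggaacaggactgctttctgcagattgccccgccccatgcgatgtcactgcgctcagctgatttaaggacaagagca
Isg15, chr4:156200819-156201068, - strand: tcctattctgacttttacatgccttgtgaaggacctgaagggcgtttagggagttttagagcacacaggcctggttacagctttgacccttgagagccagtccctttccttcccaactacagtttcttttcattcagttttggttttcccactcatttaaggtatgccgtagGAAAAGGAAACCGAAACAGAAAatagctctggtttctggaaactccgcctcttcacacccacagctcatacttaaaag
The Ifit3 and Ifit3b windows matched at 188 of 218 bases (86.2%) when set 32 bases apart.

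**Figure D3:**
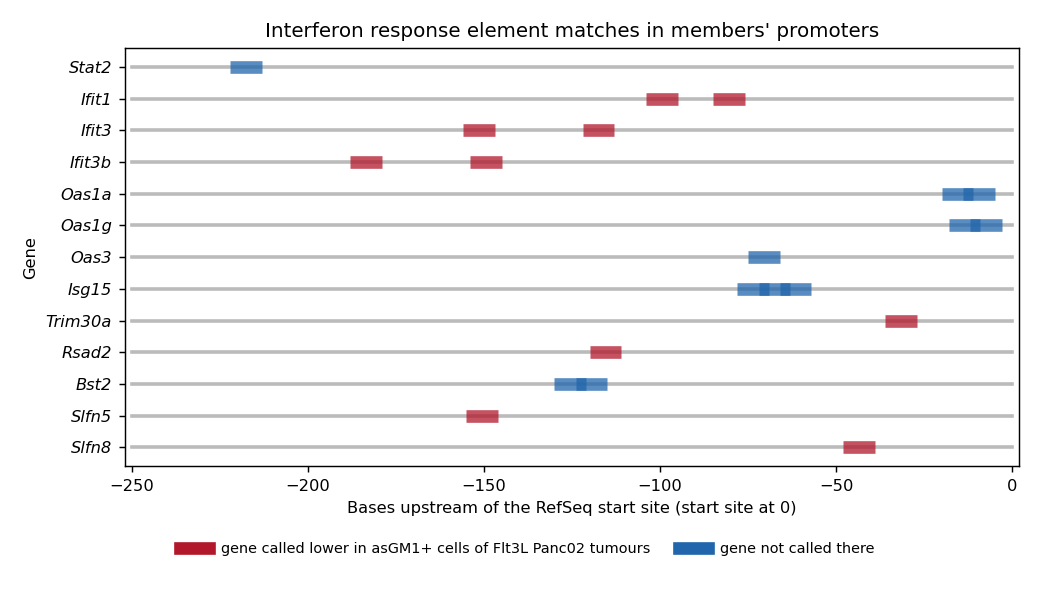
Position of each match to the response element core (horizontal axis, bases upstream of the start site at 0) in the 13 members that hold one, for the first start site listed. Red boxes belong to members lower in asGM1-positive cells of Flt3L Panc02 tumours and blue boxes to members not called there, with red boxes between -188 and -27 and blue boxes between -222 and -3.

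Among the 4 signalling members, Irf7 and Usp18 were lower in asGM1-positive cells than in the asGM1-negative gate of Flt3L Panc02 tumours, and Irf9 and Stat2 were not called. Irf7, a transcription factor that amplifies interferon production, had 119, 101 and 143 CPM in the asGM1-positive gate and 246, 216 and 220.0 CPM in the asGM1-negative gate of Flt3L Panc02 tumours. In Panc02 tumours it had 129, 132 and 127 CPM in the asGM1-positive gate and 188, 166 and 166 CPM in the asGM1-negative gate. Every asGM1-negative library lay above every asGM1-positive library of either tumour. The log2 fold change between the gates was -0.91 ± 0.12 (SE) in Flt3L Panc02 tumours (edgeR adjusted p = 0.00135) and -0.42 ± 0.12 in Panc02 tumours (edgeR adjusted p = 0.192). Between tumour types its asGM1-positive libraries overlapped (-0.10 ± 0.12, edgeR adjusted p = 0.683), with a value of 0.018 without Flt3L replicate 2. Usp18, which removes ISG15 from proteins and dampens the interferon receptor, had 41.3, 29.1 and 34.2 CPM in the asGM1-positive gate and 88.6, 63.3 and 68.4 CPM in the asGM1-negative gate of Flt3L Panc02 tumours. Its levels in Panc02 tumours were 63.5, 57.7 and 42 CPM in the asGM1-positive gate and 73.7, 69 and 60.4 CPM in the asGM1-negative gate. The gates were apart in Flt3L Panc02 tumours and overlapped in Panc02 tumours. On the log2 scale the difference was -1.08 ± 0.19 in Flt3L Panc02 tumours (edgeR adjusted p = 0.00543) and -0.32 ± 0.18 in Panc02 tumours (edgeR adjusted p = 0.63).

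Stat2 and Irf9 encode parts of the complex that carries the signal to the nucleus. Stat2 had 41.4, 32.6 and 25.4 CPM in the asGM1-positive gate and 42, 54.1 and 53 CPM in the asGM1-negative gate of Flt3L Panc02 tumours, and 39, 37.7 and 33.8 CPM in the asGM1-positive gate and 49.7, 36 and 32.8 CPM in the asGM1-negative gate of Panc02 tumours. The gates were narrowly apart in Flt3L Panc02 tumours and overlapped in Panc02 tumours, and the log2 fold change of -0.59 ± 0.20 in Flt3L Panc02 tumours did not pass (edgeR adjusted p = 0.0877). Irf9 had 96.8, 111 and 112 CPM in the asGM1-positive gate and 113, 119 and 129 CPM in the asGM1-negative gate of Flt3L Panc02 tumours. In Panc02 tumours it had 88.3, 83.8 and 85.1 CPM in the asGM1-positive gate and 112, 96.8 and 103 CPM in the asGM1-negative gate. Its asGM1-positive libraries lay below the asGM1-negative ones in each tumour type by little, with a log2 fold change of -0.17 ± 0.10 in Flt3L Panc02 tumours (edgeR adjusted p = 0.289).

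Of the 4 sensors of nucleic acid, Eif2ak2 was lower in asGM1-positive cells of Flt3L Panc02 tumours both against their asGM1-negative cells and against asGM1-positive cells of Panc02 tumours, and the other 3 were not called. Eif2ak2 encodes PKR, a kinase that stops translation when it meets double-stranded RNA. It had 15.5, 12.8 and 13.1 CPM in the asGM1-positive gate and 22.2, 21.9 and 19.2 CPM in the asGM1-negative gate of Flt3L Panc02 tumours. Panc02 tumours gave 28.8, 23 and 20.1 CPM in the asGM1-positive gate and 20.6, 21.3 and 15.4 CPM in the asGM1-negative gate. The Flt3L asGM1-positive libraries lay below all libraries of the other 3 groups except asGM1-negative replicate 3 of Panc02 tumours, which was just under the highest of them. Its log2 fold change was -0.61 ± 0.17 between the gates of Flt3L Panc02 tumours (edgeR adjusted p = 0.0425) and -0.80 ± 0.17 between tumour types in the asGM1-positive gate (edgeR adjusted p = 0.0206).

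Zbp1, a sensor of Z-form nucleic acid that can start cell death, did not follow that pattern. It had 169.8, 164 and 239.7 CPM in the asGM1-positive gate and 156, 173 and 201 CPM in the asGM1-negative gate of Flt3L Panc02 tumours, and 131, 149 and 139 CPM in the asGM1-positive gate and 192, 198 and 183 CPM in the asGM1-negative gate of Panc02 tumours. The gates overlapped in Flt3L Panc02 tumours, and in Panc02 tumours the asGM1-positive libraries were the lower ones. The fitted log2 fold change was 0.12 ± 0.14 in Flt3L Panc02 tumours (edgeR adjusted p = 0.664), where its sign depended on asGM1-positive replicate 3 (-0.073 without it), and -0.45 ± 0.14 in Panc02 tumours (edgeR adjusted p = 0.267). Ifih1, which encodes MDA5, a sensor of long double-stranded RNA, had 6.88, 7.1 and 6.76 CPM in the asGM1-positive gate and 7.44, 11.7 and 12.3 CPM in the asGM1-negative gate of Flt3L Panc02 tumours, and 8.19, 11 and 7.96 CPM in the asGM1-positive gate and 10.2, 11 and 8.44 CPM in the asGM1-negative gate of Panc02 tumours. Its lowest values were those of Flt3L asGM1-positive cells, and the log2 fold change of -0.60 ± 0.21 between the gates there did not pass (edgeR adjusted p = 0.0981). Dhx58, whose product LGP2 assists MDA5, averaged 50.6 ± 2.6 CPM (SD, n = 3) in asGM1-positive and 61.7 ± 2.4 CPM (n = 3) in asGM1-negative cells of Flt3L Panc02 tumours, and 53.6 ± 3.8 and 72.9 ± 8.19 CPM (n = 3 each) in asGM1-positive and asGM1-negative cells of Panc02 tumours. The gates did not overlap in either tumour type, and the log2 fold changes of -0.29 ± 0.10 and -0.44 ± 0.10 did not pass (edgeR adjusted p = 0.116 and 0.0874).

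The 4 IFIT members, which bind foreign RNA ends or the translation machinery and block protein synthesis, all had negative log2 fold changes in the comparisons of Flt3L asGM1-positive cells. Between tumour types all 4 were lower in asGM1-positive cells of Flt3L Panc02 tumours, and between the gates of those tumours Ifit1, Ifit3 and Ifit3b were lower and Ifit2 was not called. Ifit1 had 38.5, 27 and 37.2 CPM in the asGM1-positive gate and 69.5, 50.3 and 57.1 CPM in the asGM1-negative gate of Flt3L Panc02 tumours. Panc02 tumours gave 81.4, 81.7 and 58.5 CPM in the asGM1-positive gate and 80.9, 87.3 and 85 CPM in the asGM1-negative gate. The Flt3L asGM1-positive libraries stood below the other 9, and the Panc02 gates overlapped. On the log2 scale, the fold change of Ifit1 was -0.79 ± 0.17 between the gates of Flt3L Panc02 tumours (edgeR adjusted p = 0.0179) and -1.11 ± 0.17 between tumour types in the asGM1-positive gate (edgeR adjusted p = 0.00752). In asGM1-negative cells Ifit1 had a log2 fold change of -0.52 ± 0.17 between tumour types, which did not pass (edgeR adjusted p = 0.118), although the 3 Flt3L libraries lay below the 3 of Panc02 tumours.

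Ifit3, whose product stabilises IFIT1, had 65.3, 43.2 and 76 CPM in the asGM1-positive gate and 128, 86 and 122 CPM in the asGM1-negative gate of Flt3L Panc02 tumours. In Panc02 tumours it had 122, 112 and 84.6 CPM in the asGM1-positive gate and 149, 147 and 139 CPM in the asGM1-negative gate. Flt3L asGM1-positive libraries were again the lowest of all 12. The edgeR log2 fold change was -0.86 ± 0.21 between the gates of Flt3L Panc02 tumours (edgeR adjusted p = 0.0284) and -0.79 ± 0.21 between tumour types in the asGM1-positive gate (edgeR adjusted p = 0.0489). Ifit3b, a close copy of Ifit3 as the promoter windows above show, had log2 fold changes of -0.97 ± 0.22 and -0.89 ± 0.22 in these comparisons (edgeR adjusted p = 0.0201 and 0.0384), and how the counting split fragments between the copies is uncertain. Ifit2, which can drive cell death, averaged 15.4 ± 2.95 CPM in asGM1-positive cells of Flt3L Panc02 tumours, against 30 ± 5.36 CPM in asGM1-positive cells of Panc02 tumours (SD, n = 3 each), and its log2 fold change was -0.96 ± 0.21 (edgeR adjusted p = 0.0257).

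**Figure D4:**
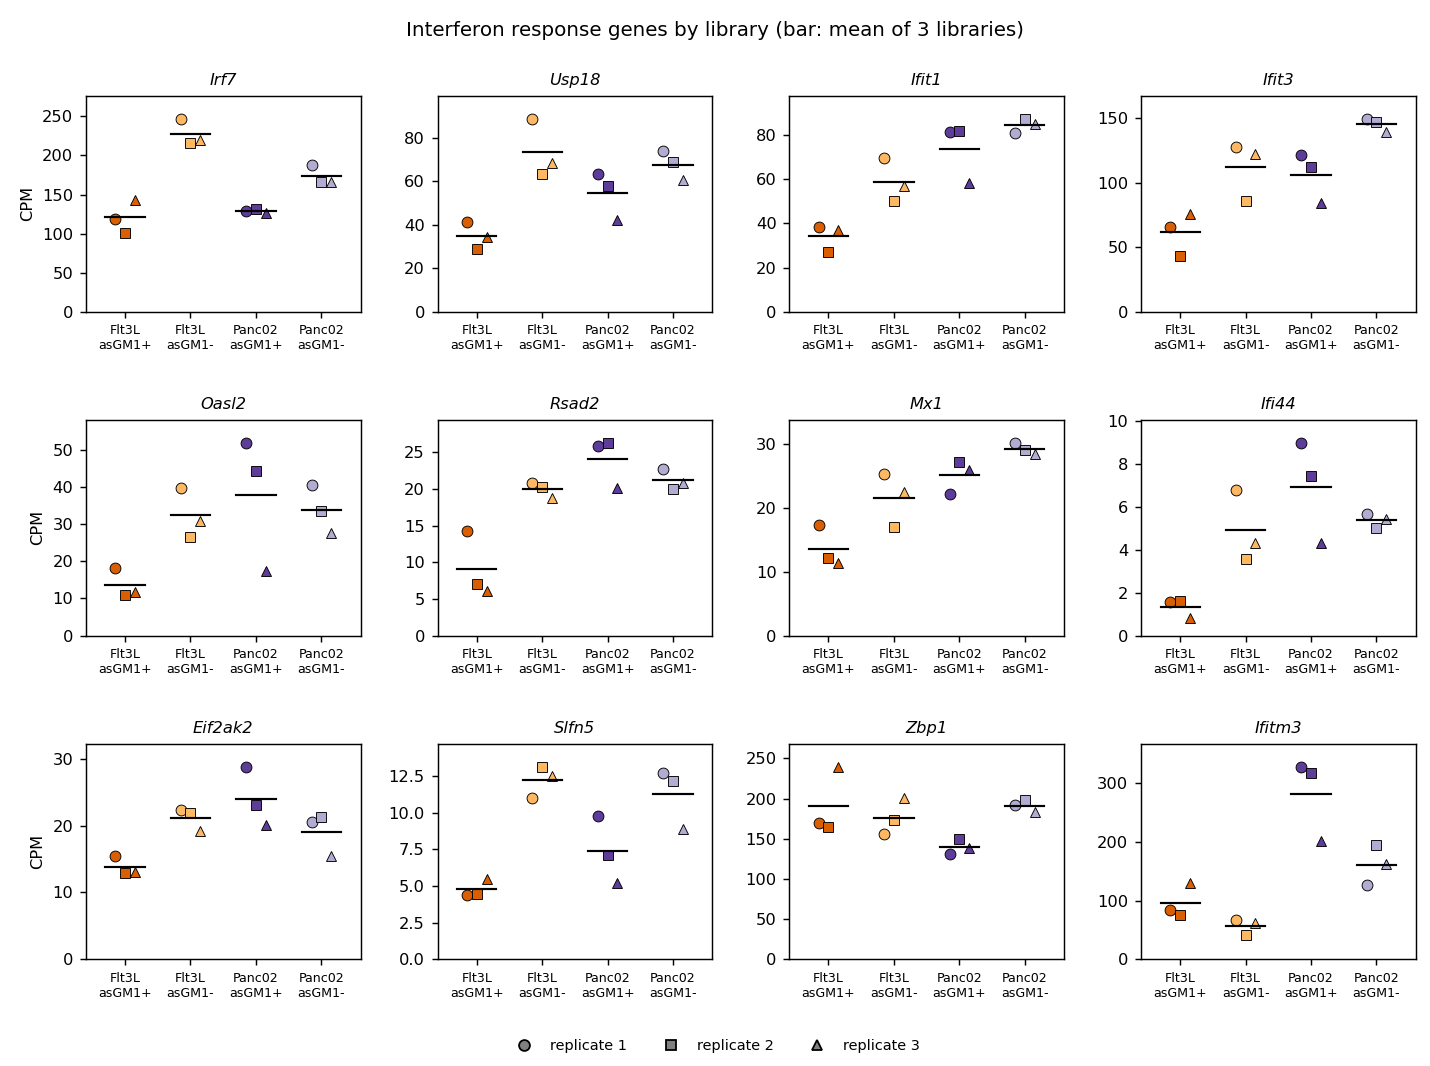
CPM (vertical axis, linear, from 0) of 12 members in each of the 12 libraries, by group, with a bar at the mean of 3 libraries and the marker shape giving the replicate number. Ifit1, Ifit3, Rsad2 and Ifi44 have their 3 lowest values in asGM1-positive cells of Flt3L Panc02 tumours, while Zbp1 and Ifitm3 do not.

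Enzymes of the OAS family make short oligoadenylates that activate the ribonuclease RNase L, an activity that the mouse relative OASL1 lacks. Of the 6 members of the family, Oasl1 and Oasl2 were lower in asGM1-positive cells than in the asGM1-negative gate of Flt3L Panc02 tumours, and Oasl2 was lower than in asGM1-positive cells of Panc02 tumours. Oasl2 had 18.2, 11 and 11.8 CPM in the asGM1-positive gate and 39.8, 26.6 and 30.8 CPM in the asGM1-negative gate of Flt3L Panc02 tumours. Panc02 tumours gave 51.9, 44.2 and 17.3 CPM in the asGM1-positive gate and 40.4, 33.5 and 27.7 CPM in the asGM1-negative gate. Replicate 3 of the Panc02 asGM1-positive cells fell inside the range of the Flt3L asGM1-positive libraries, so those groups overlapped. The log2 fold change was -1.25 ± 0.35 between the gates of Flt3L Panc02 tumours (edgeR adjusted p = 0.0479) and -1.47 ± 0.35 between tumour types in the asGM1-positive gate (edgeR adjusted p = 0.0349). Oasl1, which in mouse limits the translation of Irf7, averaged 9.19 ± 2.53 CPM in the asGM1-positive gate and 20 ± 0.896 CPM in the asGM1-negative gate of Flt3L Panc02 tumours (SD, n = 3 each), and its log2 fold change was -1.12 ± 0.27 (edgeR adjusted p = 0.0247).

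Oas2 had 2.19, 1.34 and 0.521 CPM in the asGM1-positive gate and 6.17, 3.54 and 2.21 CPM in the asGM1-negative gate of Flt3L Panc02 tumours, and 3.88, 5.24 and 1.88 CPM in the asGM1-positive gate and 4.32, 3.57 and 2.02 CPM in the asGM1-negative gate of Panc02 tumours. The libraries of a group spread widely, with replicate 3 the lowest in all 4 groups. Log2 fold changes of -1.56 ± 0.55 between the gates of Flt3L Panc02 tumours and -1.44 ± 0.55 between tumour types in asGM1-positive cells did not pass (edgeR adjusted p = 0.106 and 0.136). Oas1a, Oas1g and Oas3 were called in none of the comparisons. Their group means lay between 16.2 and 43.2 CPM for Oas1a and Oas3 and between 5.06 and 9.8 CPM for Oas1g, and Oas1a and Oas1g are close paralogs.

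Of the 6 members of the ISG15, TRIM and PARP group, Trim25, Trim30a and Parp14 were lower in asGM1-positive cells than in the asGM1-negative gate of Flt3L Panc02 tumours, and Isg15, Parp9 and Dtx3l were not called. Isg15, the ubiquitin-like modifier itself, had 34.4, 23.3 and 42.8 CPM in the asGM1-positive gate and 43.1, 34.3 and 39 CPM in the asGM1-negative gate of Flt3L Panc02 tumours, and 36, 40.9 and 36.9 CPM in the asGM1-positive gate and 41.1, 54.3 and 42.2 CPM in the asGM1-negative gate of Panc02 tumours. All 4 groups lay close together, and the log2 fold change between the gates of Flt3L Panc02 tumours was -0.21 ± 0.20 (edgeR adjusted p = 0.54). Trim25, a ubiquitin ligase that acts on the RNA sensor RIG-I, had 38.6, 36.1 and 37.6 CPM in the asGM1-positive gate and 46.2, 48.5 and 47.2 CPM in the asGM1-negative gate of Flt3L Panc02 tumours. It had 30.8, 33.5 and 34 CPM in the asGM1-positive gate and 32.3, 31 and 36.2 CPM in the asGM1-negative gate of Panc02 tumours. Flt3L asGM1-negative libraries were the highest, with narrow spread. Its log2 fold change was -0.34 ± 0.09 between the gates of Flt3L Panc02 tumours (edgeR adjusted p = 0.0478) and 0.51 ± 0.10 between tumour types in asGM1-negative cells (edgeR adjusted p = 0.0169).

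Trim30a, a feedback regulator of Toll-like receptor signalling in mouse, averaged 91 ± 7.06 CPM in the asGM1-positive gate and 133 ± 23.5 CPM in the asGM1-negative gate of Flt3L Panc02 tumours (SD, n = 3 each), and its log2 fold change was -0.55 ± 0.13 (edgeR adjusted p = 0.0221). Parp14, an ADP-ribosyltransferase, averaged 43.2 ± 3.61 CPM in the asGM1-positive gate and 60.5 ± 5.55 CPM in the asGM1-negative gate of those tumours (SD, n = 3 each), and its log2 fold change was -0.49 ± 0.13 (edgeR adjusted p = 0.0377). Parp9 and Dtx3l, whose products work as a complex on histones and other proteins, had group means of 83.1 to 111 CPM and 64.7 to 80.6 CPM and were called in none of the comparisons.

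The 9 effectors divided. Mx1, Mx2, Rsad2 and Cmpk2 were lower in asGM1-positive cells than in the asGM1-negative gate of Flt3L Panc02 tumours, and Mx1, Rsad2, Ifitm3 and Samd9l were lower there than in asGM1-positive cells of Panc02 tumours. Rsad2 encodes viperin, an enzyme that makes a nucleotide which ends viral RNA chains. It had 14.2, 7.02 and 6.13 CPM in the asGM1-positive gate and 20.8, 20.2 and 18.8 CPM in the asGM1-negative gate of Flt3L Panc02 tumours, and 25.8, 26.3 and 20.2 CPM in the asGM1-positive gate and 22.7, 20 and 20.9 CPM in the asGM1-negative gate of Panc02 tumours. The other 9 libraries lay together, above all 3 Flt3L asGM1-positive ones, of which replicate 1 was the highest. On the log2 scale the difference was -1.13 ± 0.26 between the gates of Flt3L Panc02 tumours (edgeR adjusted p = 0.0219) and -1.40 ± 0.26 between tumour types in the asGM1-positive gate (edgeR adjusted p = 0.0141). Cmpk2, a mitochondrial nucleotide kinase, averaged 14.3 ± 1.72 CPM in the asGM1-positive gate and 24.9 ± 3.52 CPM in the asGM1-negative gate of Flt3L Panc02 tumours (SD, n = 3 each), and its log2 fold change was -0.80 ± 0.17 (edgeR adjusted p = 0.0169).

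Mx1 and Mx2 are paralogs of a family known for GTPases that trap viral particles, and only their RNA was measured here. Mx1 had 17.3, 12.1 and 11.3 CPM in the asGM1-positive gate and 25.3, 16.9 and 22.5 CPM in the asGM1-negative gate of Flt3L Panc02 tumours, and 22.2, 27.1 and 25.9 CPM in the asGM1-positive gate and 30.1, 29 and 28.4 CPM in the asGM1-negative gate of Panc02 tumours. Replicate 1 of the Flt3L asGM1-positive cells lay just above replicate 2 of their asGM1-negative cells, while the tumour types were apart in asGM1-positive cells. The fitted log2 fold change was -0.67 ± 0.18 between the gates of Flt3L Panc02 tumours (edgeR adjusted p = 0.0451) and -0.89 ± 0.18 between tumour types in the asGM1-positive gate (edgeR adjusted p = 0.0204). Mx2 had 1.45, 1.82 and 0.51 CPM in the asGM1-positive gate and 6.71, 4.16 and 4.78 CPM in the asGM1-negative gate of Flt3L Panc02 tumours, and 3.94, 3.36 and 2.24 CPM in the asGM1-positive gate and 3.94, 4.95 and 3.11 CPM in the asGM1-negative gate of Panc02 tumours. Flt3L asGM1-positive libraries were the lowest, and the Panc02 gates overlapped. The log2 fold change between the gates of Flt3L Panc02 tumours was -2.05 ± 0.41 (edgeR adjusted p = 0.0123), and between tumour types in asGM1-positive cells -1.33 ± 0.41, which did not pass (edgeR adjusted p = 0.0732).

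Ifitm3, a membrane protein that blocks virus entry, ran the other way between gates. It had 84, 75.6 and 129.9 CPM in the asGM1-positive gate and 66.9, 41.9 and 62.7 CPM in the asGM1-negative gate of Flt3L Panc02 tumours, and 328, 318 and 202 CPM in the asGM1-positive gate and 126, 195 and 162 CPM in the asGM1-negative gate of Panc02 tumours. The asGM1-positive libraries were the higher ones in each tumour type, and every Panc02 library lay above its Flt3L counterparts of the same gate. The log2 fold change between the gates was 0.75 ± 0.26 in Flt3L Panc02 tumours and 0.81 ± 0.26 in Panc02 tumours, neither of which passed (edgeR adjusted p = 0.0996 and 0.267). Between tumour types it was -1.55 ± 0.27 in the asGM1-positive gate (edgeR adjusted p = 0.01) and -1.50 ± 0.27 in asGM1-negative cells (edgeR adjusted p = 0.015). Macrophages also express Ifitm3. The sum of 11 macrophage and monocyte markers, given below, had a lower mean in Flt3L than in Panc02 tumours in each gate, with ranges that overlapped in asGM1-positive cells and were apart in asGM1-negative cells. Between the gates it was 406.9 to 610.8 CPM in asGM1-positive cells, above 212.6 to 384.6 CPM in asGM1-negative cells of Flt3L Panc02 tumours, while the ranges overlapped in Panc02 tumours. Between the gates the log2 fold change was positive for 10 of the 11 markers in Flt3L Panc02 and 11 of 11 in Panc02 tumours. The part of macrophage RNA in the Ifitm3 results was not tested. Of the calls in asGM1-negative cells, that of Trim25 ended in 4 and that of Ifitm3 in 3 of the 6 runs that left out 1 library.

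Bst2, or tetherin, holds budding virus at the cell surface and in mouse also marks plasmacytoid dendritic cells. It had 104, 87.1 and 135 CPM in the asGM1-positive gate and 167, 140.4 and 159 CPM in the asGM1-negative gate of Flt3L Panc02 tumours, and 118, 113 and 106 CPM in the asGM1-positive gate and 124, 151 and 144 CPM in the asGM1-negative gate of Panc02 tumours. The asGM1-positive libraries were the lower ones in each tumour type without overlap, and the log2 fold change of -0.52 ± 0.15 in Flt3L Panc02 tumours missed the threshold (edgeR adjusted p = 0.0524). Isg20, an RNA exonuclease, had 210.2, 169 and 257 CPM in the asGM1-positive gate and 232, 144 and 161 CPM in the asGM1-negative gate of Flt3L Panc02 tumours, and 225, 257 and 258 CPM in the asGM1-positive gate and 214, 291 and 261 CPM in the asGM1-negative gate of Panc02 tumours. All 4 groups overlapped with at least 1 other group, and Isg20 was not called. Samd9l, which restrains translation and growth, averaged 37.9 ± 7.11 CPM in asGM1-positive cells of Flt3L Panc02 tumours, against 55.3 ± 6.12 CPM in those of Panc02 tumours (SD, n = 3 each), and its log2 fold change was -0.55 ± 0.14 (edgeR adjusted p = 0.0382). Helz2, a helicase that acts as a nuclear coactivator, had group means of 39.4 to 57.5 CPM and was not called.

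Among the 5 other induced genes, Ifi44 and Rtp4 were lower in asGM1-positive cells than in the asGM1-negative gate of Flt3L Panc02 tumours. Ifi44, a gene strongly induced by interferon, had 1.57, 1.63 and 0.809 CPM in the asGM1-positive gate and 6.81, 3.58 and 4.34 CPM in the asGM1-negative gate of Flt3L Panc02 tumours. In Panc02 tumours it had 8.99, 7.46 and 4.34 CPM in the asGM1-positive gate and 5.7, 5.04 and 5.44 CPM in the asGM1-negative gate. Every other library held more Ifi44 than the highest Flt3L asGM1-positive one. The log2 fold change was -1.88 ± 0.35 between the gates of Flt3L Panc02 tumours (edgeR adjusted p = 0.00762) and -2.38 ± 0.35 between tumour types in the asGM1-positive gate (edgeR adjusted p = 0.00626). Rtp4, a chaperone of membrane receptors, averaged 33.3 ± 5.59 CPM in the asGM1-positive gate and 64.2 ± 15.9 CPM in the asGM1-negative gate of Flt3L Panc02 tumours (SD, n = 3 each), and its log2 fold change was -0.95 ± 0.23 (edgeR adjusted p = 0.0294).

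Ifi27l2a, a small membrane protein gene with close relatives, had 154, 125 and 239 CPM in the asGM1-positive gate and 358, 200.5 and 289 CPM in the asGM1-negative gate of Flt3L Panc02 tumours, and 134, 97.7 and 125 CPM in the asGM1-positive gate and 216, 224 and 239 CPM in the asGM1-negative gate of Panc02 tumours. The gates overlapped in Flt3L Panc02 tumours through asGM1-positive replicate 3 and were apart in Panc02 tumours. Log2 fold changes of -0.71 ± 0.24 in Flt3L Panc02 tumours and -0.92 ± 0.24 in Panc02 tumours did not pass (edgeR adjusted p = 0.0946 and 0.141). Ifi35 and Xaf1, which have been tied to the turnover of signalling proteins and to cell death, had group means of 156 to 188 CPM and 75.1 to 86.8 CPM and were called in none of the comparisons.

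All 3 Schlafen members, genes tied to growth control and quiescence of T cells, were lower in asGM1-positive cells than in the asGM1-negative gate of Flt3L Panc02 tumours. Slfn5 had 4.42, 4.44 and 5.5 CPM in the asGM1-positive gate and 11, 13.1 and 12.5 CPM in the asGM1-negative gate of Flt3L Panc02 tumours, and 9.79, 7.11 and 5.19 CPM in the asGM1-positive gate and 12.7, 12.2 and 8.86 CPM in the asGM1-negative gate of Panc02 tumours. The gates were far apart in Flt3L Panc02 tumours and overlapped in Panc02 tumours. As a log2 fold change the difference was -1.35 ± 0.23 in Flt3L Panc02 tumours (edgeR adjusted p = 0.00515) and -0.61 ± 0.23 in Panc02 tumours (edgeR adjusted p = 0.357). Slfn8 had 31, 29.1 and 23.4 CPM in the asGM1-positive gate and 43.4, 55.7 and 50.6 CPM in the asGM1-negative gate of Flt3L Panc02 tumours, and 43, 42.9 and 37.4 CPM in the asGM1-positive gate and 55.1, 41.9 and 33.6 CPM in the asGM1-negative gate of Panc02 tumours. Its log2 fold change between the gates of Flt3L Panc02 tumours was -0.84 ± 0.18 (edgeR adjusted p = 0.0145), and the Panc02 gates overlapped.

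Slfn1 had 38.7, 48.1 and 52.1 CPM in the asGM1-positive gate and 58, 65.2 and 76.2 CPM in the asGM1-negative gate of Flt3L Panc02 tumours, and 31.2, 32.9 and 37.3 CPM in the asGM1-positive gate and 55.2, 57.9 and 48.6 CPM in the asGM1-negative gate of Panc02 tumours. The gates were apart in each tumour type. Slfn1 had a log2 fold change of -0.52 ± 0.14 in Flt3L Panc02 tumours (edgeR adjusted p = 0.0427) and -0.67 ± 0.14 in Panc02 tumours, the member nearest to the threshold there (edgeR adjusted p = 0.054). The Schlafen genes form a cluster of paralogs, so how counts were shared among them is uncertain.

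The 2 Ly6 members, Ly6a (Sca-1) and Ly6e, encode surface proteins of lymphocytes. Ly6a had 1087, 918 and 1462 CPM in the asGM1-positive gate and 1502, 743 and 1083 CPM in the asGM1-negative gate of Flt3L Panc02 tumours, and 877, 1297 and 927 CPM in the asGM1-positive gate and 938, 1653 and 1397 CPM in the asGM1-negative gate of Panc02 tumours. Ly6e had 2014, 2085 and 2404 CPM in the asGM1-positive gate and 2942, 2292 and 2279 CPM in the asGM1-negative gate of Flt3L Panc02 tumours, and 2322, 2137 and 1848 CPM in the asGM1-positive gate and 2386, 2688 and 2553 CPM in the asGM1-negative gate of Panc02 tumours. Both were called in none of the comparisons, and for Ly6a the groups overlapped throughout.

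Whether the gate effect itself differed between tumour types was tested as an interaction. It called 0 of 43 members by edgeR, where 0.367% of all genes were called. At an unadjusted p under 0.05 there were 16 members, and all genes were not counted at that threshold. DESeq2 called 3 members (Eif2ak2, Rsad2 and Ifi44) and limma-voom 5, where they called 862 and 786 of all 20411 genes, against 75 by edgeR. The interaction was negative for 32 of 43, with a median of -0.45 against -0.02 over all genes, so the estimated gate effect of most members was more negative in Flt3L Panc02 tumours. Ifi44 came nearest, at -2.24 ± 0.48 (edgeR adjusted p = 0.0781), followed by Eif2ak2 at -0.94 ± 0.23 (0.109) and Rsad2 at -1.31 ± 0.36 (0.142, both edgeR adjusted p). A member called lower in 1 tumour type and not in the other is therefore not shown to differ between them. The interaction count was 1 without Flt3L asGM1-positive replicate 1 and 2 without Panc02 asGM1-positive replicate 3.

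The calls between the gates of Flt3L Panc02 tumours depended on single libraries in part. Those of Irf7, Usp18, Mx2, Ifi44 and Slfn5 held in all 6 runs that left out 1 of the compared libraries, and those of the other 15 members ended in 1 to 6 of the runs. The count of members lower was 13, 8 and 11 without asGM1-positive replicates 1, 2 and 3, and 17, 11 and 8 without asGM1-negative replicates 1, 2 and 3. Between tumour types in asGM1-positive cells, the calls of Ifit1 and Ifi44 held in all 6 such runs, and those of the other 9 ended in 1 to 5. The count lower there was 10, 2 and 4 without Flt3L replicates 1, 2 and 3, with 1 member higher in the run without replicate 1, and 5, 3 and 15 without Panc02 replicates 1, 2 and 3. It was 3 without both Panc02 libraries numbered 1. It was 0 with a fit to those 6 libraries alone, in which 1 of 18573 genes was called.

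Transcripts of plasmacytoid dendritic cells moved with the gates. Siglech, a surface receptor found on these cells, had 4.55, 2.33 and 1.6 CPM in the asGM1-positive gate and 289.9, 262 and 253 CPM in the asGM1-negative gate of Flt3L Panc02 tumours. In Panc02 tumours it had 1.75, 3.1 and 0.0901 CPM in the asGM1-positive gate and 70.1, 40.4 and 43 CPM in the asGM1-negative gate. The asGM1-negative mean was 94.9 times the asGM1-positive mean in Flt3L Panc02 tumours and 31.1 times in Panc02 tumours, and no library overlapped the other gate. Of 13 markers of these cells, 11 were lower in asGM1-positive cells of Flt3L Panc02 tumours and 10 in those of Panc02 tumours, with 0 higher. Summed, they came to 214.8 to 246.5 CPM in asGM1-positive and 1036 to 1096 CPM in asGM1-negative cells of Flt3L Panc02 tumours, and 153.9 to 155.9 CPM in asGM1-positive and 337.7 to 435.3 CPM in asGM1-negative cells of Panc02 tumours. Most of the sum in asGM1-positive cells came from Pacsin1 and Ptprs, so the sum differs less between gates than Siglech does. Pacsin1 averaged 102.4 CPM in the asGM1-positive gate and 153.5 CPM in the asGM1-negative gate of Flt3L Panc02 tumours, and Ptprs 111.5 and 117.5 CPM in the same gates, and neither was called there. Cd300c was at 0 in 4 of the 6 asGM1-positive libraries, and Spib, Cox6a2 and Smim5 were at 0 in Panc02 asGM1-positive replicate 3. Of 8 conventional dendritic cell markers, 6 were lower in asGM1-positive cells of Flt3L Panc02 tumours and 1 in those of Panc02 tumours, and of 4 CD4 T cell markers 4 and 3 were. The 8 conventional dendritic cell markers summed to 18.23 to 27.35 CPM in asGM1-positive cells and 109.3 to 119.8 CPM in asGM1-negative cells of Flt3L Panc02 tumours, and to 16.8 to 33.81 CPM and 41.08 to 59.9 CPM in those gates of Panc02 tumours. The 4 CD4 T cell markers summed to 41.68 to 53.06 CPM in asGM1-positive cells and 124.3 to 153.5 CPM in asGM1-negative cells of Flt3L Panc02 tumours, and to 39.28 to 51.87 CPM and 106.6 to 132.4 CPM in those gates of Panc02 tumours. The part of this RNA in the members' differences between gates was not tested.

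Siglech and the members can also be set side by side between tumour types, which is a different comparison from that of the gates. In asGM1-negative cells the Siglech mean was 5.24 times as high in Flt3L Panc02 as in Panc02 tumours, with the libraries apart. In that comparison 1 member was called higher and 1 lower. Over all 43 members the median log2 fold change there was 0.11, against 0.002 over all genes, with 24 members positive and 19 negative. Irf7 there had a log2 fold change of 0.39 ± 0.12 (edgeR adjusted p = 0.0987), Ifit1 of -0.52 ± 0.17 and Mx1 of -0.44 ± 0.18 (edgeR adjusted p = 0.118 and 0.206). In asGM1-positive cells Siglech was at or below 4.55 CPM in all 6 libraries and its groups overlapped between tumour types, while 11 members were lower in Flt3L Panc02 tumours.

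The gate difference of each gene, in CPM, can also be divided by the gate difference of Siglech. For Ccr9, a chemokine receptor of plasmacytoid dendritic cells, it was 0.437 ± 0.0346 (SE) in Flt3L Panc02 and 0.472 ± 0.0358 in Panc02 tumours. For Spib, a transcription factor of these cells, it was 0.106 ± 0.0182 and 0.111 ± 0.0105, and for Cd300c 0.0624 ± 0.00238 and 0.0622 ± 0.00941. Not all 13 markers were as even. Ptprs had 0.0225 ± 0.0929 and 0.674 ± 0.145, and Tcf4 0.214 ± 0.017 and 0.0988 ± 0.098. For Irf7 the ratio was 0.401 ± 0.051 in Flt3L Panc02 and 0.893 ± 0.0295 in Panc02 tumours. Usp18 had 0.145 ± 0.0271 and 0.268 ± 0.138, Ifit1 0.0932 ± 0.0227 and 0.213 ± 0.171, and Slfn5 0.0279 ± 0.00368 and 0.0783 ± 0.0333. Rsad2 had 0.0408 ± 0.00957 and -0.0586 ± 0.049, and Ifi44 0.0135 ± 0.00333 and -0.0311 ± 0.0296. Mx2 had 0.0149 ± 0.00277 and 0.0165 ± 0.0152, Ifih1 0.0134 ± 0.00632 and 0.0161 ± 0.0247, and Oasl1 0.0407 ± 0.00538 and 0.0502 ± 0.0589. Siglech-scaled differences were thus close between tumour types for the markers Ccr9, Spib and Cd300c and the members Mx2, Ifih1 and Oasl1. They were larger in Panc02 tumours for Irf7, Usp18, Ifit1 and Slfn5, and below 0 there for Rsad2 and Ifi44. Among other members, Dhx58 had 0.0417 ± 0.00677 in Flt3L Panc02 and 0.391 ± 0.0752 in Panc02 tumours. Irf9 had 0.0507 ± 0.0271 and 0.367 ± 0.0435, and Slfn1 0.0759 ± 0.0275 and 0.406 ± 0.0981. Eif2ak2, Ifit2, Oas1g, Oas2, Oasl2, Parp14 and Samd9l were below 0 in Panc02 tumours only, and Ifitm3 in each tumour type. Stat2, Oas1a, Trim25 and Slfn8 were above 0 but smaller in Panc02 tumours. For Mx2, Ifih1, Oasl1, Rsad2 and Ifi44 the SE in Panc02 tumours was about as large as the value or larger. These ratios are descriptions, and their differences were not tested.

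**Figure D5:**
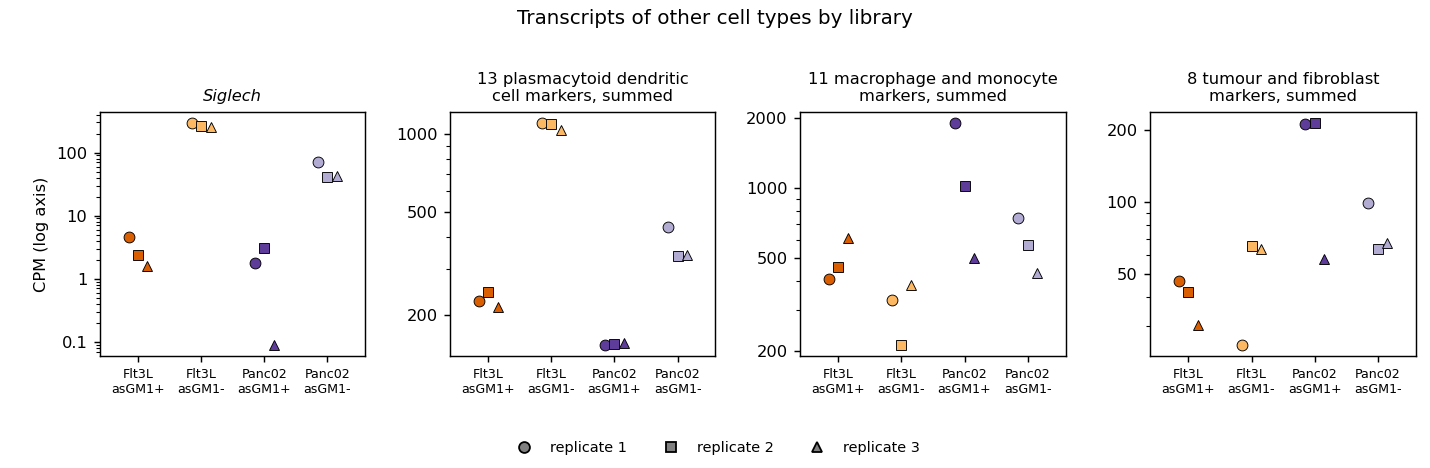
CPM (vertical axes, log scale) of Siglech and of the summed markers of plasmacytoid dendritic cells (13), macrophages and monocytes (11), and tumour cells and fibroblasts (8) in each of the 12 libraries, by group. Siglech is higher in every asGM1-negative than in every asGM1-positive library, and the macrophage sum is highest in Panc02 asGM1-positive replicate 1, at 1899 CPM.

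Macrophage transcripts moved with the comparison of tumour types in each gate, and tumour and fibroblast transcripts did so only in part. The 11 macrophage and monocyte markers summed to 406.9 to 610.8 CPM in asGM1-positive cells of Flt3L Panc02 tumours, against 502.5 to 1899 CPM in those of Panc02 tumours. All 11 had a negative log2 fold change there, and 2 of them (Csf1r and Fcgr1) were called lower. In asGM1-negative cells the sum was 212.6 to 384.6 CPM in Flt3L Panc02 and 432.9 to 745.3 CPM in Panc02 tumours. Markers of tumour cells and fibroblasts (8) summed to 30.31 to 46.61 CPM in asGM1-positive cells of Flt3L Panc02 tumours and 57.75 to 214 CPM in those of Panc02 tumours, with 3 lower (Krt8, Krt18 and Dcn) and 1 higher. In asGM1-negative cells they summed to 25.17 to 65.46 CPM in Flt3L Panc02 and 63.31 to 99.38 CPM in Panc02 tumours, also with 3 lower and 1 higher. Those ranges overlapped. Of the 7 markers tested, 4 had a positive log2 fold change in asGM1-negative cells (median 0.122) and 1 in asGM1-positive cells (median -2.42). Epcam averaged 6.91 CPM in Flt3L Panc02 and 3.32 CPM in Panc02 tumours in asGM1-positive cells. In asGM1-negative cells its means were 10.7 and 5.21 CPM. Krt19 was at 0 in 9 of the 12 libraries. Their part in the members' differences was not tested.

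Panc02 asGM1-positive replicate 3 had the lowest macrophage sum of its group, 502.5 CPM, which lies inside the range of the Flt3L asGM1-positive libraries. In that library Ifit1 was at 58.5 CPM, against 27 to 38.5 CPM in Flt3L asGM1-positive libraries. Rsad2 was at 20.2 CPM there, against 6.13 to 14.2 CPM, and Ifi44 at 4.34 CPM, against 0.809 to 1.63 CPM. Oasl2, at 17.3 CPM there, was inside the range of 11 to 18.2 CPM of the Flt3L asGM1-positive libraries. These are values of a single library, and the part of macrophage RNA in the members' differences was not tested.

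Upstream of the members, transcripts of the interferons themselves were nearly absent. Of 19 genes for type I and type III interferons, 0 passed the filter, 8 had any count, and the highest value was 0.187 CPM, from 18 counts of Ifnb1 in 1 library. Each fragment was worth about 2.69 counts, so only levels above about 0.08 CPM (3 fragments) could be told from 0, counting error only. Between the gates of Flt3L Panc02 tumours 5.83% of all genes were called lower in asGM1-positive cells. Of 10 receptor and signalling genes, 1 was lower there and 9 were not called. It was Ifnar2, the gene of a receptor chain, with 72.8, 94.9 and 82.5 CPM in the asGM1-positive gate and 135, 129.8 and 125 CPM in the asGM1-negative gate, a log2 fold change of -0.64 ± 0.14 (edgeR adjusted p = 0.0177). Between tumour types Ifnar2 was higher in asGM1-negative cells of Flt3L Panc02 tumours, by 0.69 ± 0.14 (edgeR adjusted p = 0.0248), and so was Ptpn11, a phosphatase of cytokine signalling, by 0.54 ± 0.10 (edgeR adjusted p = 0.0204). Ptpn11 was also higher in asGM1-positive cells of Flt3L Panc02 tumours, by 0.46 ± 0.10 (edgeR adjusted p = 0.0272). Ifnar1, the other receptor chain, was called in none of the comparisons.

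Of 15 genes of nucleic acid sensing and interferon induction, 14 were tested. Tlr7, an endosomal sensor of single-stranded RNA that plasmacytoid dendritic cells express, was lower in asGM1-positive cells than in the asGM1-negative gate of Flt3L Panc02 tumours by -1.69 ± 0.28 on the log2 scale (edgeR adjusted p = 0.00456), and Unc93b1, which carries such receptors to endosomes, by -1.38 ± 0.26 (edgeR adjusted p = 0.0087). Tlr7 was higher in asGM1-negative cells of Flt3L Panc02 than of Panc02 tumours (1.16 ± 0.28, edgeR adjusted p = 0.0446). In asGM1-positive cells Myd88, the adaptor of these receptors, was higher in Flt3L Panc02 tumours (0.35 ± 0.09, edgeR adjusted p = 0.0444), and Tlr3, a sensor of double-stranded RNA, was lower (-2.82 ± 0.71, edgeR adjusted p = 0.0408) at 0.258 ± 0.228 CPM against 1.83 ± 1.14 CPM in Panc02 tumours (SD, n = 3 each). Its level in Flt3L replicate 1, 0.0726 CPM, lay below the 0.08 CPM that could be told from 0.

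Of 42 further interferon-induced genes tested, 7 were lower and 1 higher in asGM1-positive cells than in the asGM1-negative gate of Flt3L Panc02 tumours. Of all genes, 5.83% were called lower and 2.77% higher in that comparison, and 0.843% lower between the gates of Panc02 tumours. The lowest p-values among the 7 were those of Ifi213 (-0.74 ± 0.12), Rnf213 (-0.84 ± 0.14) and Parp11 (-0.76 ± 0.15, edgeR adjusted p = 0.00343, 0.00409 and 0.0113), and the gene that was higher was Ifitm2 (1.59 ± 0.38, edgeR adjusted p = 0.0257). In Panc02 tumours 1 was lower, Ms4a4c (-1.17 ± 0.24, edgeR adjusted p = 0.0473). Between tumour types in asGM1-positive cells 5 were lower and 1 higher, where 4.2% of all genes were called lower and 2.05% higher. The leading ones were the DNA sensor gene Ifi204 (-1.37 ± 0.23), its relative Ifi211 (-1.39 ± 0.26) and Parp12 (-1.06 ± 0.24, edgeR adjusted p = 0.00971, 0.0132 and 0.0261), and Slfn2, which keeps T cells quiescent, was higher (0.76 ± 0.15, edgeR adjusted p = 0.0192). In asGM1-negative cells 4 were lower, where 1.84% of all genes were. They were led by Ifitm2 (-2.37 ± 0.39), Ifi211 (-1.54 ± 0.26) and Ifi204 (-1.13 ± 0.23, edgeR adjusted p = 0.0106, 0.011 and 0.026).

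The response to interferon gamma overlaps with the type I response. Of 28 genes of that pathway tested, which include Ifng, its receptor chains and induced genes, 9 were lower and 0 higher in asGM1-positive cells than in the asGM1-negative gate of Flt3L Panc02 tumours, and 2 were lower in Panc02 tumours. Of all genes, 5.83% were called lower between the gates of Flt3L Panc02 tumours and 0.843% between those of Panc02 tumours. The 9 include the receptor chain gene Ifngr2 (-1.47, edgeR adjusted p = 0.0297), named after its values were seen. The pair lower in Panc02 tumours, Tgtp1 and Tgtp2, was also lower in Flt3L Panc02 tumours. They encode GTPases that attack the vacuoles of intracellular parasites. Tgtp1 had 139.8, 112 and 138 CPM in the asGM1-positive gate and 392, 276 and 290.4 CPM in the asGM1-negative gate of Flt3L Panc02 tumours, and 138, 119 and 93 CPM in the asGM1-positive gate and 286, 285 and 230.5 CPM in the asGM1-negative gate of Panc02 tumours. The gates were apart in each tumour type. On the log2 scale, the fold change of Tgtp1 was -1.30 ± 0.18 in Flt3L Panc02 and -1.19 ± 0.18 in Panc02 tumours (edgeR adjusted p = 0.00149 and 0.00708), and that of Tgtp2 -1.04 ± 0.14 and -0.98 ± 0.14 (edgeR adjusted p = 0.00157 and 0.0062). Gbp10, a guanylate-binding protein gene, was lower in Flt3L Panc02 tumours (-0.79 ± 0.12, edgeR adjusted p = 0.00305). Between tumour types Gbp8 was higher in asGM1-negative cells of Flt3L Panc02 tumours (0.48 ± 0.12) and Gbp3 lower in their asGM1-positive cells (-0.59 ± 0.15, edgeR adjusted p = 0.0448 and 0.0437). Ifng itself and Irf1, its early target, were called in none of the comparisons. Ifng averaged 335 ± 141 CPM in the asGM1-positive gate and 196 ± 61.3 CPM in the asGM1-negative gate of Flt3L Panc02 tumours, and 397 ± 141 CPM in the asGM1-positive gate and 347 ± 128 CPM in the asGM1-negative gate of Panc02 tumours (SD, n = 3 each).

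Among these genes outside the 43, the gate calls of Tlr7, Unc93b1, Ifi213, Rnf213, Parp11, Gbp10, Tgtp1 and Tgtp2 in Flt3L Panc02 tumours, and of Tgtp1 and Tgtp2 in Panc02 tumours, held in all 6 runs that left out 1 library. The calls of Ifnar2 and Ifitm2 in Flt3L Panc02 tumours ended in 3 and 5 of 6 runs and that of Ms4a4c in Panc02 tumours in 6. Each call between tumour types named for these genes ended in 1 to 6 runs.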

How the data were processed

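RNA of 12 libraries of sorted intratumoural CD8+ T cells was extracted with TRIzol and made into libraries with TruSeq mRNA and SMARTer ultra low input kits, per the labels' protocols. The authors deposited estimated counts per gene as whole numbers, and HISAT2, StringTie and the build mm39 are named, without roles, per the submitters' processing notes. Tool versions, the annotation and the strand setting were not given in the sources used here. Without a strand setting, a gene's reads cannot be separated from those of an overlapping or antisense partner. Low values rose in steps of about 2.69 counts (2.67 to 2.71), taken as 1 fragment, and intervals and floors cover counting error only. The table had 1542 genes without a symbol, which could not be matched to a list.

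The estimated counts, rounded to whole numbers, were tested in R 4.3.3 by edgeR version 4.0.16 (scaling by TMM, filterByExpr by group, quasi-likelihood test, 1 model of 4 group means over 12 libraries, Benjamini-Hochberg adjustment over 20411 genes). Log2 fold changes include the prior count of edgeR, and SE is the unshrunken log2 fold change divided by the square root of F. Alternatives were DESeq2 1.42.0, limma 3.58.1 voom with quality weights, other scalings and filters, fits to the compared libraries alone, replicate blocks and leaving out each library. The test was checked on simulated data. Libraries were grouped by their labels.

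The members and lists were chosen with earlier results of these data known. Library values were given for up to 6 members in each direction with the smallest p among those called in a comparison, and for a panel of 21 members, and the other members by means or ranges. Of other lists, up to 3 called genes in each direction were named. Promoters came from RefSeq tables on GRCm38.p6, another build than that of the counts, and serve as sequence only. Results for some genes of the lists are not reported here.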

Additional observations from a re-analysis of the deposited data

How the results depend on the processing

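The count of members called between the gates of Flt3L Panc02 tumours was 20, and it was 13 with no filter on low counts and 12 with the compared libraries alone. Leaving out 1 library gave 8 to 17. In the Panc02 gates the count was 0, all 6 runs without 1 library gave 0 to 0, and it was 1 with upper quartile factors, with a filter of 5 CPM in 3 libraries, with the compared libraries alone and with counts divided by the fragment step, 4 with DESeq2 and 6 with limma-voom. Between tumour types in asGM1-positive cells it was 11, against 7 with no filter, 19 with DESeq2, 19 with limma-voom, 0 with the compared libraries alone, 3 without both Panc02 libraries numbered 1, and 2 to 15 without 1 library. In asGM1-negative cells it was 2, against 4 with DESeq2, 10 with limma-voom, 1 with the compared libraries alone, 1 without both Panc02 libraries numbered 1, and 0 to 3 without 1 library. Of all 20411 genes, edgeR called 756 in that comparison, DESeq2 2207 and limma-voom 3536. For the interaction it was 0, against 1 with the filter of 5 CPM in 3 libraries, 3 with DESeq2, 5 with limma-voom, and 0 to 2 without 1 library. DESeq2 and limma-voom called more of all genes than edgeR in every comparison. The fit to fewer libraries has fewer degrees of freedom, and the filters change the number of genes tested. Otherwise the cause was not tested.

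The log2 fold change of Zbp1 between the gates of Flt3L Panc02 tumours was 0.12, but -0.11 with limma-voom and -0.073 without asGM1-positive replicate 3, with a range of -0.073 to 0.22 over the runs without 1 library. That of Irf7 between tumour types in asGM1-positive cells was -0.10, but 0.018 without Flt3L replicate 2, with a range of -0.21 to 0.018. The cause was not tested.

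Same-numbered libraries had deviations with r = 0.284, 0.0952 and 0.166 in the Panc02 gates and 0.054, 0.104 and 0.0224 in the Flt3L gates, and not all passed 0.1, so the numbers were not taken as pairs. Different numbers gave -0.21 to 0.0575 in the Panc02 gates and -0.113 to 0.0512 in the Flt3L gates. Every Panc02 library correlated best with its own number, a hint from the data, as did all but asGM1-positive replicate 3 of the Flt3L libraries. With a replicate block over all 12 libraries the counts were 21 for the Flt3L gates, 1 for the Panc02 gates, 14 and 2 between tumour types in asGM1-positive and asGM1-negative cells, and 1 for the interaction. With a block within tumour type they were 22 for the Flt3L gates, 1 for the Panc02 gates and 0 for the interaction.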
